A study of Mus musculus with 6 samples.

Results

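Lysosomal genes were examined in RNA-seq of satellite cells, the stem cells of skeletal muscle, with and without the histone chaperone HIRA. The 60 genes are 35 lysosomal genes listed by name and all 25 protein-coding genes whose GENCODE M21 symbol begins with Atp6v0 or Atp6v1 or is Atp6ap1 or Atp6ap2, out of 55536 genes counted. The listed genes are 10 cathepsins, 3 further protease or granulin genes (Lgmn, Tpp1, Grn), 9 glycan hydrolases, 7 genes of lipid breakdown and transfer, 5 membrane proteins and the regulator Tfeb. The symbol pattern also took in Atp6v1fnb, a neighbour of the subunit gene Atp6v1f that is not itself a pump subunit.

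Control samples came from Pax7CreErt2;Hira fl/+ mice and cKO samples from Pax7CreErt2;Hira fl/fl mice, 3 samples of each, all adult males labelled C57BL/6J. The sample labels call the controls WT, but both genotypes carried the inducible Cre and at least 1 floxed Hira allele, and both received tamoxifen. Cre was driven by Pax7, so Hira was a target only in cells that had expressed Pax7. Cells were sorted 5 days post-injury with barium chloride as CD34+ ITGA7+ cells outside the CD45, TER119 and SCA1 gates, then cultured for 48 h before total RNA was sequenced without ribosomal RNA. The samples were independent RNA samples, and it is not stated whether each came from its own mouse, so p-values measure the spread between these samples, which may be technical.

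Lysosomes are acidic organelles in which proteases, glycosidases and lipases take apart material brought in by endocytosis and autophagy. The vacuolar ATPase (V-ATPase) acidifies them: its V1 sector splits ATP in the cytosol and its membrane sector V0 carries the protons. Most of these genes are used by all cells and many share the control element of the transcription factor TFEB, whereas some cathepsins are abundant in macrophages, which degrade engulfed material, and cathepsin K and the d2 subunit of V0 are known from the bone-resorbing osteoclast.

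Depth was high and even, with 47944477 to 63323577 counts per sample. Levels are given in CPM, a gene's counts per 1000000 counts of the sample, which allow comparison between samples, and as CPM per kb of exon where genes are compared with each other. Hira itself had 375, 348 and 341 counts in control and 161, 293 and 272 counts in cKO. Its groups did not overlap and its log2 fold change was -0.43 ± 0.12 (SE, n = 3 per group, edgeR adjusted p = 0.0237). This was a partial reduction in RNA counts of the whole gene, against controls that still had 1 intact allele. Without control replicate 1 the change was -0.34 with an edgeR adjusted p of 0.104, and without cKO replicate 1, the library with the lowest Hira count, it was -0.29. By other measures, the paper reports a sharp fall in Hira RNA (RT-qPCR) and no detected HIRA protein in cKO satellite cells. All 8 satellite cell markers were abundant, among them Pax7 with a mean of 39.3 CPM in control and 35.1 CPM in cKO. Of the 8, 7 were lower in cKO, against 6.46% of all tested genes. Muscle differentiation genes such as Myog and Myh3 had a summed level of 33030 to 34040 CPM in control and 27010 to 29020 CPM in cKO. Of the 6 genes on that list 4 were lower in cKO and none was higher.

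Markers of other cells moved between the groups too, although the sort was set to leave out CD45+ cells. Over all tested genes 9.38% were higher in cKO. Of 24 macrophage markers, 22 were higher, at a median log2 change of 1.06. Their summed level was 160.2 to 168.1 CPM in control and 330.2 to 388.2 CPM in cKO, and Lyz2, the macrophage lysozyme, made up much of it with means of 80.4 and 185.5 CPM. Ptprc, which encodes CD45, had 72 to 94 counts in control and 126 to 169 in cKO. Cd163 and Cx3cr1 did not pass the test, and no marker of the list was at 0. Of 9 tested fibroblast markers 6 were higher, their median log2 change being 0.69. The summed level of the fibroblast list was 1249 to 1341 CPM in control and 1749 to 1959 CPM in cKO. Of 10 endothelial markers 4 were higher. Neutrophil markers were all too low to test, with S100a9 and Elane at 0 counts in every sample, and among 6 lymphocyte markers Ms4a1 was at 0 counts in every sample while Cd3g and Nkg7 had at most 3 counts in any. Cd3e reached 10 counts in 1 control sample, and Cd79a had 8 to 21 counts over the 6 samples and did not pass. In these bulk samples a change in the number of cells of a type and a change in RNA per cell cannot be told apart. Whether the satellite cells themselves expressed the markers of other cells was not tested with these RNA data. The paper reports immunostaining for VE-cadherin, the protein of the endothelial marker Cdh5, in isolated satellite cells lacking Hira. It proposes that expression of genes from alternative lineages increases in satellite cells without HIRA.

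More of the lysosomal genes were higher in cKO than lower, and the largest rises were in a few cathepsins and 1 pump subunit. Of the 60 genes, 56 were expressed highly enough to test. In edgeR's quasi-likelihood test, with p-values adjusted by Benjamini-Hochberg across all 22404 tested genes, 20 of them (35.7%) were higher in cKO, 2 (3.57%) were lower and 34 did not pass an adjusted p under 0.05. The background was 9.38% of all tested genes higher and 6.46% lower, or 2101 and 1448 genes, which scaling to total counts alone changed to 2462 and 1057. The median log2 fold change of the tested lysosomal genes was 0.07, against -0.0011 for all tested genes, and without cKO replicate 1 it was 0.04. The 3 samples of a group lay entirely above those of the other for 27 genes with cKO above and 6 with cKO below, together 58.9% of the tested lysosomal genes, against 31.4% of all tested genes. The summed level of all 60 genes was 3878 to 3926 CPM in control and 4180 to 4332 CPM in cKO.

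**Figure D1:**
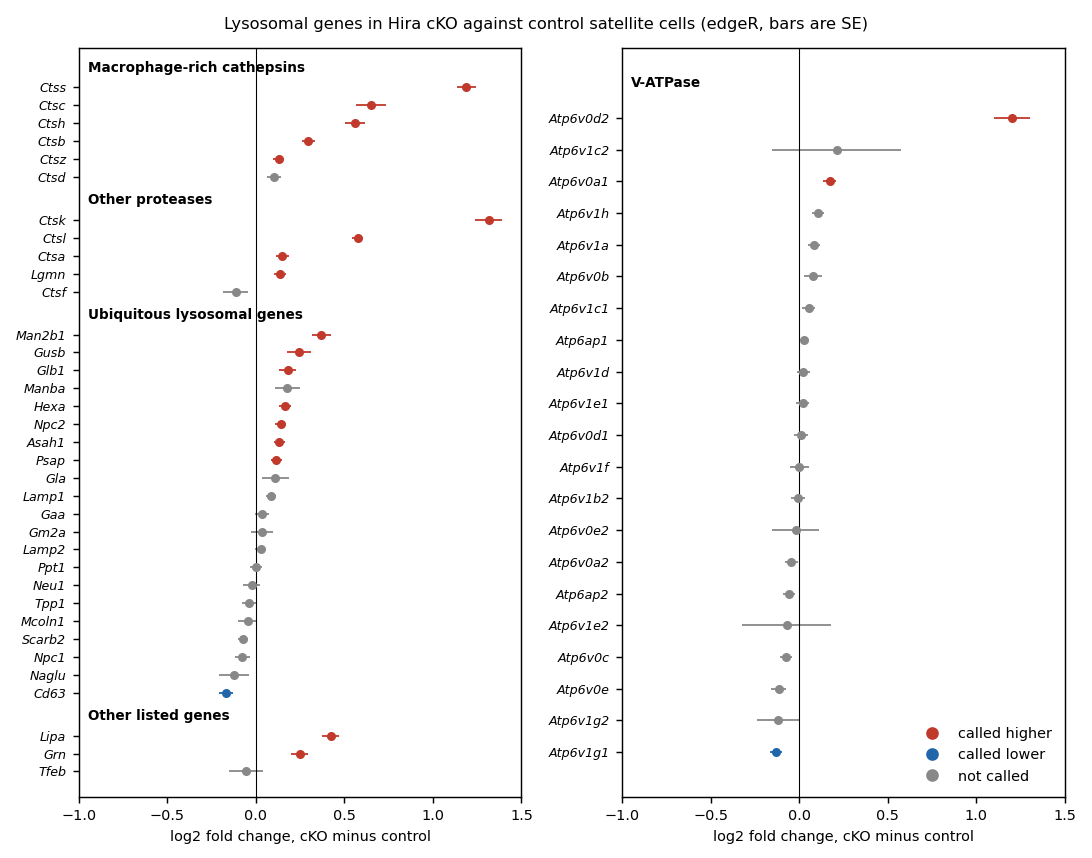
The log2 fold change of each tested gene (cKO minus control, x axis) is drawn with its standard error from the edgeR fit, n = 3 samples per group, red for called higher, blue for called lower and grey for not called. Ctsk, Atp6v0d2 and Ctss lie beyond 1, whereas the other pump subunits and most ubiquitous lysosomal genes lie near 0.

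The list of macrophage-rich cathepsins (Ctsb, Ctsc, Ctsd, Ctsh, Ctss and Ctsz) came from general knowledge, with earlier results of these data known. Its 6 genes included 5 that were higher in cKO and none that was lower, and their median log2 fold change was 0.43. The ubiquitous lysosomal genes, 21 genes of glycan and lipid breakdown and of the lysosomal membrane with Tpp1 and Ppt1, included 7 that were higher, 1 that was lower and 13 that did not pass, with a median of 0.04. This list left out Lipa (log2 fold change 0.42), Ctsl (0.58), Grn, Ctsa and Lgmn, which were all higher. Of all 29 listed genes outside the macrophage-rich cathepsins 13 were higher and 1 lower, with a median of 0.11. Over all tested genes 9.38% were higher and 6.46% lower. The summed level of the 6 cathepsins was 613.4 to 635.6 CPM in control and 709.5 to 764.2 CPM in cKO, a ratio of 1.19. The summed level of the 21 ubiquitous genes was 1820 to 1829 CPM in control and 1877 to 1962 CPM in cKO, a ratio of 1.06. For both sums all 3 cKO samples were above all 3 control samples, and the difference between the lists was not tested.

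Within the macrophage-rich list Ctss, Ctsc and Ctsh moved most. Ctss encodes cathepsin S, which trims the invariant chain of MHC class II molecules in antigen-presenting cells, and lies in mm10 at chr3:95526786-95556403. It stood at 18.6, 17.7 and 19.4 CPM in control and 42.0, 46.5 and 40.5 CPM in cKO. The lowest cKO sample was above 2 times the highest control sample, and the log2 fold change was 1.19 ± 0.05 (SE, n = 3 per group, edgeR adjusted p = 9.96e-10). Ctsc encodes cathepsin C, which activates the serine proteases of leukocyte granules. It stood at 5.91, 5.50 and 6.21 CPM in control and 8.72, 10.6 and 8.72 CPM in cKO, for a log2 change of 0.65 ± 0.08 (edgeR adjusted p = 5.68e-05). Ctsh, for the aminopeptidase cathepsin H, stood at 7.37, 7.64 and 7.44 CPM in control and 11.1, 11.5 and 11.1 CPM in cKO, for a log2 change of 0.56 ± 0.06 (edgeR adjusted p = 7.11e-06). All 3 cathepsins were therefore separated between the groups by a gap wider than the spread within either. Their summed level was 30.9 to 33.0 CPM in control and 60.3 to 68.6 CPM in cKO, a ratio of 1.99, and in the same samples the summed macrophage markers stood at a ratio of 2.18.

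The other cathepsins of the list, Ctsb, Ctsz and Ctsd, had higher levels in these samples and moved less. Ctsb, for cathepsin B, an abundant cysteine protease of the lysosome, stood at 181.2, 183.5 and 185.1 CPM in control and 229.8, 243.3 and 213.9 CPM in cKO. Its log2 fold change was 0.30 ± 0.04 (SE, n = 3 per group, edgeR adjusted p = 6.13e-05). Ctsz, for the carboxypeptidase cathepsin Z, stood at 120.0, 125.1 and 126.2 CPM in control and 139.6, 139.0 and 134.3 CPM in cKO. Its groups did not overlap but lay close together, with a log2 fold change of 0.13 ± 0.03 (edgeR adjusted p = 0.0119), and the call was lost without control replicate 1 (edgeR adjusted p = 0.0818). Ctsd, for the aspartic protease cathepsin D, stood at 280.3, 294.5 and 291.3 CPM in control and 332.9, 312.3 and 301.0 CPM in cKO. All 3 cKO samples were higher, yet the log2 fold change of 0.10 ± 0.04 did not pass the test (edgeR adjusted p = 0.0788, 95% interval 0.02 to 0.18). Ctsd shares 35.8% of its 75-base exonic sequence windows with other annotated genes, mainly with Gm49369 on the same strand, which had 0 counts in every sample, and Ctsb shares 15.0%.

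Among cathepsins outside that list the changes ran from the largest of all to none. Ctsk encodes cathepsin K, the collagen-cutting protease that osteoclasts and fibroblasts release, and sits next to Ctss at chr3:95499256-95509362. It stood at 3.55, 3.96 and 3.53 CPM in control and 9.03, 9.59 and 9.35 CPM in cKO, for a log2 change of 1.31 ± 0.07 (SE, n = 3 per group, edgeR adjusted p = 1.03e-08). Ctsl, for cathepsin L, a broadly expressed cysteine protease, stood at 163.1, 171.7 and 173.3 CPM in control and 257.8, 255.6 and 257.0 CPM in cKO, for a log2 change of 0.58 ± 0.03 (edgeR adjusted p = 8.56e-09). The 3 cKO samples of Ctsl were nearly equal and its gain of 87.4 CPM was 23.4% of the difference in the summed level of all 60 genes, the largest share of any. Ctsb followed with 12.2%, Psap with 10.1%, and Ctss, in spite of its larger fold change, with 6.56%. Ctsa, for cathepsin A, the protective protein of β-galactosidase and neuraminidase, stood at 57.3, 60.4 and 56.0 CPM in control and 66.9, 65.6 and 63.6 CPM in cKO, for a log2 change of 0.15 ± 0.04 (edgeR adjusted p = 0.0122). Its call was lost without control replicate 1 or 3 (edgeR adjusted p of 0.0562 and 0.0849). Ctsf did not pass, with a log2 fold change of -0.11 and overlapping groups. Ctsa shares 13.0% of its windows, with Pltp among others, and Ctsl shares 26.5% of its own with Gm47123, Gm49230 and Cflar. The antisense gene Gm47123 and Gm49230 had 0 counts in all 6 samples, whereas Cflar had 5786 to 8081 counts and was higher in cKO (log2 fold change 0.32, edgeR adjusted p = 1.22e-05).

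**Figure D2:**
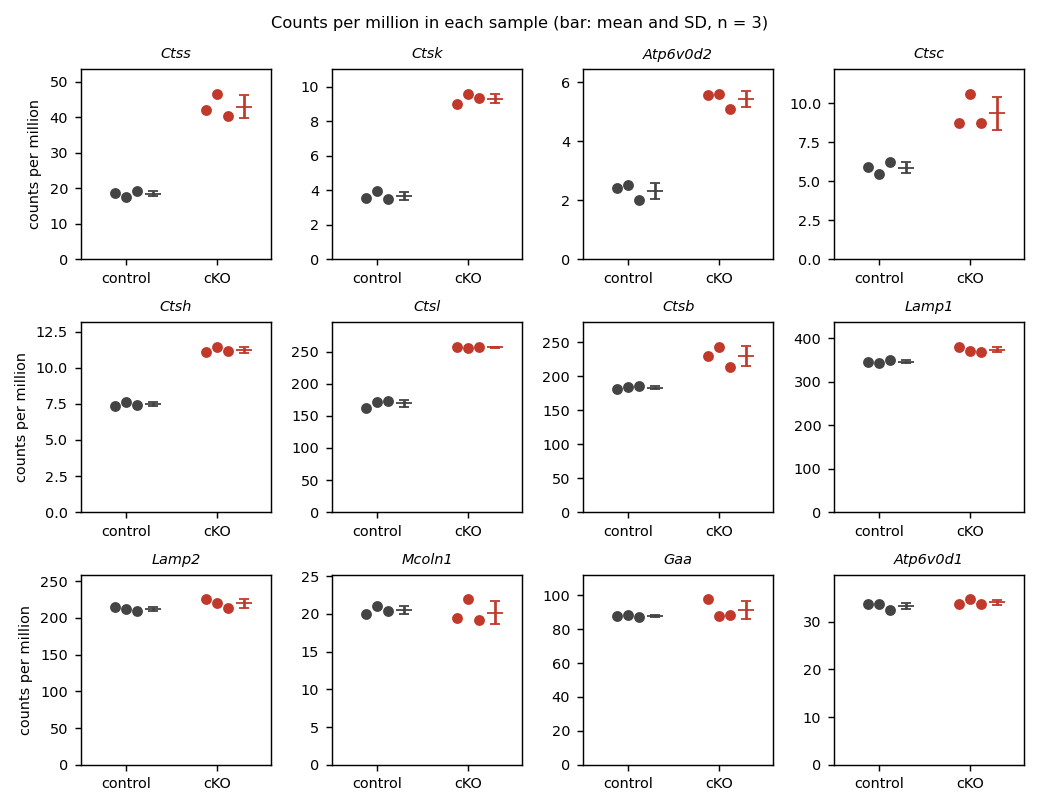
Each dot is 1 sample in CPM (y axis from 0), control in dark grey and cKO in red, with the mean and SD of 3 samples beside them. The groups are far apart for Ctss, Ctsk, Atp6v0d2, Ctsc, Ctsh and Ctsl and overlap for Lamp2, Mcoln1, Gaa and Atp6v0d1.

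Of the remaining protease genes, Lgmn, which encodes the asparagine-specific protease legumain that processes cathepsin precursors, stood at 58.4, 59.5 and 61.8 CPM in control and 67.6, 67.6 and 65.8 CPM in cKO (log2 fold change 0.14 ± 0.03, edgeR adjusted p = 0.0133). Grn, for progranulin, a secreted glycoprotein cut into granulins in the lysosome, stood at 38.4, 40.7 and 40.9 CPM in control and 49.1, 51.1 and 44.8 CPM in cKO (log2 fold change 0.25 ± 0.05, edgeR adjusted p = 0.00155). Both were higher in all 3 cKO samples, but the call for Lgmn was lost without control replicate 1 or 2 (edgeR adjusted p of 0.0818 and 0.0728). Tpp1, for tripeptidyl peptidase, was at 37.6 to 40.3 CPM in all 6 samples with overlapping groups, and its log2 fold change of -0.04 had a 95% interval of -0.12 to 0.04.

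Of the 9 glycan hydrolases 4 were higher in cKO and none was lower, against 9.38% and 6.46% of all tested genes. Man2b1, the lysosomal α-mannosidase, moved most of these, at 16.0, 16.2 and 16.2 CPM in control and 20.8, 22.9 and 20.0 CPM in cKO (log2 fold change 0.37 ± 0.05, edgeR adjusted p = 0.000139). Gusb, the β-glucuronidase, stood at 31.4, 33.0 and 32.6 CPM in control and 43.7, 39.5 and 33.9 CPM in cKO (log2 fold change 0.24 ± 0.07, edgeR adjusted p = 0.0201), so that cKO replicate 3 was barely above the controls. Glb1, the β-galactosidase used as a senescence stain, stood at 21.8, 22.4 and 22.4 CPM in control and 26.41, 26.36 and 23.95 CPM in cKO (log2 fold change 0.18 ± 0.05, edgeR adjusted p = 0.0154). Hexa, the α subunit of β-hexosaminidase, stood at 49.1, 50.8 and 51.4 CPM in control and 58.9, 57.8 and 55.9 CPM in cKO (log2 fold change 0.16 ± 0.04, edgeR adjusted p = 0.00514). The calls for Gusb and Glb1 were lost without any 1 of the 3 control samples, when the edgeR adjusted p reached 0.0519 to 0.0722 for Gusb and 0.0509 to 0.0685 for Glb1, and that of Glb1 also without cKO replicate 2 (edgeR adjusted p = 0.0525). Gaa, the acid α-glucosidase that breaks down glycogen, stood at 87.1 to 88.1 CPM in control and 88.0 to 97.6 CPM in cKO and did not pass, and neither did Gla, Naglu, Manba or Neu1.

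Lipid genes showed a similar spread, with 4 of 7 higher and none lower, against 9.38% and 6.46% of all tested genes. Lipa, the acid lipase that releases cholesterol and fatty acids from lipoproteins, stood at 36.2, 34.0 and 35.9 CPM in control and 45.9, 52.0 and 46.6 CPM in cKO (log2 fold change 0.42 ± 0.05, edgeR adjusted p = 1.29e-05). Npc2, which hands cholesterol to Npc1 for export, stood at 92.2, 94.1 and 91.7 CPM in control and 101.9, 106.7 and 103.0 CPM in cKO (log2 fold change 0.14 ± 0.03, edgeR adjusted p = 0.0057). Its partner Npc1 stood at 66.8 to 69.1 CPM in control and 62.3 to 70.4 CPM in cKO and did not pass, with a log2 fold change of -0.08. Asah1, the acid ceramidase, stood at 88.8, 87.1 and 87.5 CPM in control and 99.3, 98.5 and 95.5 CPM in cKO (log2 fold change 0.13 ± 0.03, edgeR adjusted p = 0.0087). Psap, the precursor of the saposins that present sphingolipids to their hydrolases, stood at 362.0, 374.6 and 370.8 CPM in control and 407.6, 419.6 and 393.5 CPM in cKO (log2 fold change 0.12 ± 0.03, edgeR adjusted p = 0.0174). The call for Asah1 was lost without control replicate 2 (edgeR adjusted p = 0.06), and that for Psap without any 1 of the 3 control samples (edgeR adjusted p of 0.0557 to 0.0944). Npc1 passed, as lower, only without cKO replicate 2 (edgeR adjusted p = 0.0228). Gm2a and Ppt1 did not pass, with log2 fold changes of 0.03 and 0.0020.

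None of the 5 membrane proteins was higher in cKO and 1 was lower, against 9.38% and 6.46% of all tested genes. With 5 genes these counts do not set the class apart from that background. Lamp1, the main glycoprotein of the lysosomal membrane, stood at 341.6 to 349.1 CPM in control and 368.5 to 380.0 CPM in cKO. Its groups did not overlap but its log2 fold change of 0.09 ± 0.03 did not pass (edgeR adjusted p = 0.0607). It passed without cKO replicate 2 (edgeR adjusted p = 0.0462), with a filter of at least 50 counts in 3 samples (0.0392) and with total counts alone (0.0152). Lamp2 was at 208.9 to 225.2 CPM in all 6 samples with overlapping groups, and its log2 change of 0.03 had a 95% interval of -0.04 to 0.09. Mcoln1, the calcium channel TRPML1, and Scarb2, the receptor that carries β-glucocerebrosidase, did not pass, with log2 fold changes of -0.05 and -0.07. Cd63, a tetraspanin of late endosomes and exosomes, was lower: it stood at 135.7, 131.3 and 133.9 CPM in control and 114.0, 130.2 and 118.5 CPM in cKO (log2 fold change -0.17 ± 0.04, edgeR adjusted p = 0.00946), and cKO replicate 2 was just under the controls. Cd63 shares 25.9% of its windows with other genes, and its pseudogene Cd63-ps held more counts than Cd63, 16745 to 18507 in control and 12111 to 16650 in cKO, and was lower as well (log2 fold change -0.14, edgeR adjusted p = 0.0154). Tfeb, the transcription factor that controls lysosomal genes, stood at 4.09, 3.79 and 3.34 CPM in control and 3.50, 3.64 and 3.81 CPM in cKO. Its groups overlapped and its log2 fold change of -0.05 had a 95% interval of -0.26 to 0.15. For the 13 ubiquitous genes that did not pass, the 95% intervals of the log2 fold changes together spanned -0.30 to 0.33.

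Among the V-ATPase genes 1 large change stood out from small ones. Their summed level was 1067 to 1080 CPM in control and 1085 to 1114 CPM in cKO, and the median log2 fold change of the 21 tested genes was 0.0095. The large change was in Atp6v0d2, for the d2 subunit of V0 that osteoclasts and macrophages use, at 2.423, 2.527 and 2.003 CPM in control and 5.57, 5.60 and 5.10 CPM in cKO, for a log2 change of 1.20 ± 0.10 (SE, n = 3 per group, edgeR adjusted p = 6e-07). The broadly used d1 gene, Atp6v0d1, was at 32.5 to 34.7 CPM in all 6 samples with overlapping groups and a log2 fold change of 0.0095 (95% interval -0.07 to 0.09). Per kb of exon, Atp6v0d2 made up 3.91% to 4.72% of the d subunit RNA in control and 9.07% to 9.84% in cKO, so d1 remained the main form. Of 7 osteoclast markers, a list that holds Atp6v0d2 itself, Acp5, the osteoclast acid phosphatase, had 19 to 34 counts in control and 30 to 49 in cKO and did not pass (edgeR adjusted p = 0.0566). Oscar did not pass, Nfatc1 was lower (log2 fold change -0.17), and Dcstamp, Ocstamp and Calcr were too low to test.

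In the widely expressed pump subunits 1 of 17 genes was higher and 1 was lower, against 9.38% and 6.46% of all tested genes. Atp6v0a1, for the a1 subunit, stood at 38.6, 38.4 and 39.6 CPM in control and 45.3, 43.7 and 44.5 CPM in cKO (log2 fold change 0.17 ± 0.04, edgeR adjusted p = 0.00436). Atp6v1g1, for the G1 subunit of the V1 stalk, stood at 104.0, 109.7 and 105.9 CPM in control and 98.7, 96.8 and 100.9 CPM in cKO (log2 fold change -0.13 ± 0.03, edgeR adjusted p = 0.0134). Its call was lost without control replicate 2 (edgeR adjusted p = 0.0971), and Atp6v1g1 shares 12.5% of its windows with pseudogenes. The catalytic subunit gene Atp6v1a stood at 91.9 to 94.9 CPM in control and 97.2 to 102.4 CPM in cKO, above but not past the test, with a log2 fold change of 0.08. Also not called, Atp6v0e passed as lower without cKO replicate 1, and Atp6v1h as higher without cKO replicate 2 (edgeR adjusted p of 0.0067 and 0.0276). Beside Atp6v1a, the 14 uncalled genes of this group had log2 fold changes between -0.12 and 0.11, and the 95% intervals of all 15 together spanned -0.30 to 0.26. The largest and smallest of those bounds belong to Atp6v0e2, the lowest of the 17 at about 2 CPM. The accessory subunit genes Atp6ap1 and Atp6ap2, the latter for the prorenin receptor, had log2 fold changes of 0.03 and -0.06.

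Where a subunit has several isoforms, satellite cell RNA was dominated by the widely expressed form in both groups, per kb of exon. Atp6v1b2 made up at least 99.7% of the B subunit RNA in every sample, Atp6v1c1 at least 98.5% of C, Atp6v1e1 at least 98.0% of E and Atp6v1g1 at least 98.9% of G. The a subunit was divided among 3 genes, and Tcirg1, which encodes a3 but whose symbol falls outside the pattern, supplied 36.1% to 37.0% of it in control and 37.1% to 38.5% in cKO. Atp6v0a1 supplied 20.3% to 20.8% in control and 22.1% to 22.6% in cKO, and Atp6v0a2 42.4% to 43.5% and 39.3% to 40.7%. Of the 7 isoforms confined to few tissues, Atp6v1c2, Atp6v1e2 and Atp6v1g2 were tested beside Atp6v0d2 and did not pass, with log2 fold changes of 0.21, -0.07 and -0.12. The forms of kidney and epididymis, Atp6v0a4 and Atp6v1b1, were too low to test, as was Atp6v1fnb, and Atp6v1g3, a kidney form, had 0 counts in all 6 samples. In the shallowest sample a count of 0 allows a level of up to 0.0626 CPM, for counting error only.

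Levels of the genes differed by orders of magnitude. Per kb of exon the highest in control were Psap at 134.5, Lamp1 at 129.2, Ctsd at 122.8, Atp6v1g1 at 93.9 and Ctsz at 85.9 CPM per kb, with log2 fold changes between -0.13 and 0.13. Of the 6 genes with a log2 fold change of at least 0.5 that passed, Atp6v0d2, Ctsc, Ctsh and Ctsk started from 0.853, 1.01, 1.66 and 2.44 CPM per kb, whereas Ctss and Ctsl started from 13.7 and 26.1 CPM per kb.

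**Figure D3:**
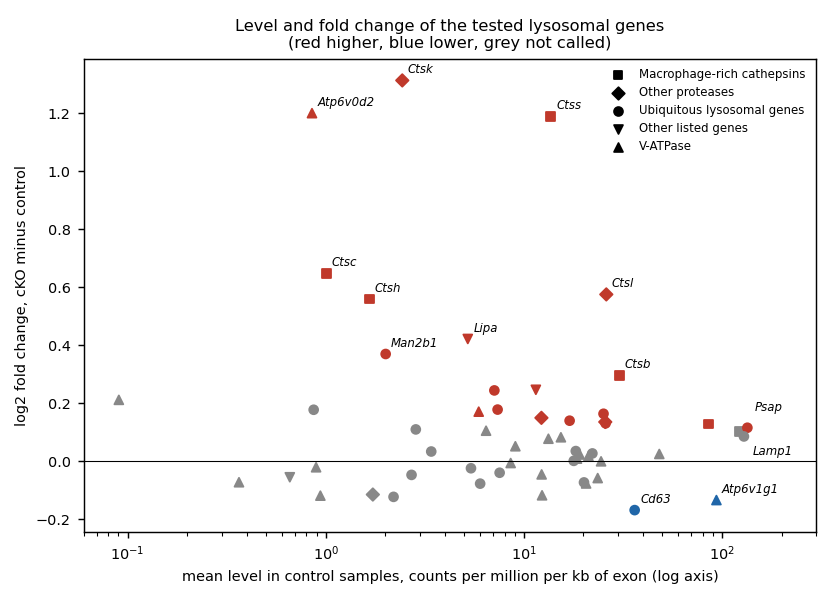
The log2 fold change of each tested gene (y axis, cKO minus control) is plotted against its mean level in the 3 control samples in CPM per kb of exon (x axis, log scale), with marker shape for gene class and color for the call. The 5 genes of highest level lie close to 0, and 4 of the 6 largest rises start from under 3 CPM per kb.

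Each gene was next set against the macrophage markers sample by sample, as a percent of their summed CPM. Ctss was 10.95% to 12.1% of that sum in control and 11.99% to 12.26% in cKO. Atp6v0d2 was 1.25% to 1.56% in control and 1.44% to 1.595% in cKO, and Ctsk 2.114% to 2.45% and 2.47% to 2.83%. The cKO to control ratios of these percentages were 1.06, 1.08 and 1.17, so these 3 genes rose by about the same factor as the marker sum or, for Ctsk, somewhat more. For Ctsc and Ctsh the ratio fell to 0.729 and 0.691, for Ctsl to 0.699 and for Ctsb to 0.574. For Lamp1, Lamp2 and Atp6v0d1 it fell to 0.498, 0.478 and 0.472. The marker sum itself rose by a factor of 2.18, so a gene with little change has a low ratio from the division alone. Ctsk and Ctss kept similar ratios to the fibroblast genes Col1a1 and Pdgfra as well. Against Col1a1 (collagen I) the cKO to control ratio was 1.02 for Ctsk and 0.931 for Ctss, and against Pdgfra it was 1.13 and 1.03. Those genes, with Dcn (log2 fold change 1.10), had the largest rises of the tested fibroblast genes. Col3a1 and Col1a2 rose less (0.21 and 0.26), and the summed fibroblast list rose by a factor of 1.4. Macrophage and fibroblast genes rose in the same samples, Col1a1 with a log2 fold change of 1.29, and the part of either cell type in the values of the lysosomal genes was not tested. The macrophage sum includes Cd68 and Laptm5, which are lysosomal proteins themselves.

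**Figure D4:**
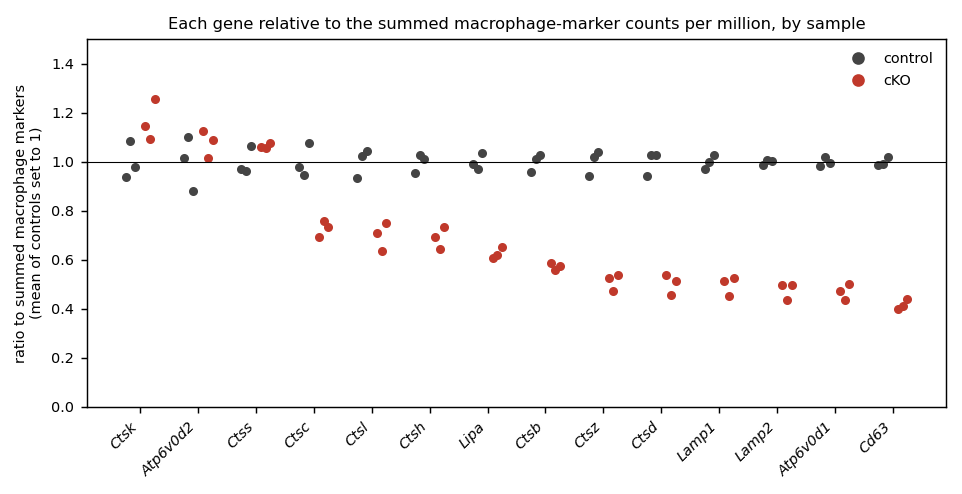
Each dot is 1 sample: the gene's CPM divided by the summed CPM of 24 macrophage markers and scaled so that the mean of the 3 controls (dark grey) is 1 (y axis). The cKO samples (red) lie near 1 for Ctss, Atp6v0d2 and Ctsk, at about 0.7 for Ctsc, Ctsh and Ctsl, and lower for the others, with a mean of 0.626 for Lipa, 0.498 for Lamp1 and 0.416 for Cd63.

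Promoter sequence was compared between called and uncalled genes. RefSeq windows on GRCm38.p6, the assembly of mm10, from 250 bases before the start site to 50 after it, were found for 50 of the 60 genes (58 windows, 1 for each start site listed), but for neither Ctsb, Ctsh nor Atp6v0d2. Each was searched on both strands for CACGTG, the E-box at the core of the lysosomal control element that TFEB binds, for its longer form TCACGTGA, which contains CACGTG, and for GAGGAAGT, a core sequence of the myeloid factor PU.1 (Spi1). CACGTG was in 25.9% of the lysosomal windows and in 7.15% of all 32851 windows. TCACGTGA was in 12.1% and 0.974%, and GAGGAAGT in 6.90% and 3.20%. The sequences below, picked by outcome, set 3 genes with large rises and no CACGTG beside 4 genes with CACGTG that were not called. They leave out called genes with CACGTG, among them Ctsl (log2 fold change 0.58) and Ctsa, and uncalled genes without it. They are written 5′ to 3′ on the gene's strand, in capitals where a searched motif, or its reverse complement ACTTCCTC in the case of PU.1, was matched.
Ctss (chr3:95526744-95526835, plus strand): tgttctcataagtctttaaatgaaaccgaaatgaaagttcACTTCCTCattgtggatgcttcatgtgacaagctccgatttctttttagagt
Ctsc (chr7:88277894-88277993, plus strand): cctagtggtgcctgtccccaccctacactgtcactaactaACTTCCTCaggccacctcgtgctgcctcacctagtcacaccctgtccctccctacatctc
Ctsk (chr3:95499130-95499229, plus strand): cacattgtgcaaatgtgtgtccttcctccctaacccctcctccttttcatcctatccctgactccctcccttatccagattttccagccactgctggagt
Lamp1 (chr8:13159060-13159159, plus strand): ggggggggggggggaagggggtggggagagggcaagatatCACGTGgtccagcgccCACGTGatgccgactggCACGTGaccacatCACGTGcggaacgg
Mcoln1 (chr8:3500433-3500532, plus strand): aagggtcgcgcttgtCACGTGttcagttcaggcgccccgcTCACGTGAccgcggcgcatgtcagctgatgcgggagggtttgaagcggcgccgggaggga
Ctsd (chr7:142387867-142387966, minus strand): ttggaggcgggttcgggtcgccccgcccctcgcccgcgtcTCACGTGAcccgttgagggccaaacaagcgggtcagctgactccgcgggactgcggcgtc
Atp6v0d1 (chr8:105566015-105566108, minus strand): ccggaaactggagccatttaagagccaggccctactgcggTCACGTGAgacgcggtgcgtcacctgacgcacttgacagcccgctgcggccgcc

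Lamp1 carries 4 CACGTG matches within this stretch, and Mcoln1, Ctsd and Atp6v0d1 each carry the longer form. Ctss and Ctsc carry the PU.1 core and no CACGTG, and Ctsk matched none of the 3. Of the 15 genes with CACGTG, 4 were higher in cKO (Ctsa, Ctsl, Glb1 and Lgmn), and their median log2 fold change was 0.08. Of the 31 tested genes with a window and no CACGTG, 12 were higher and 1 (Cd63) was lower, with a median of 0.03. The background over all tested genes was 9.38% higher and 6.46% lower. Of the 7 genes with TCACGTGA (Atp6v0d1, Atp6v0e, Atp6v1a, Ctsa, Ctsd, Gla and Mcoln1) only Ctsa was called. The PU.1 core was also in Gla and Gusb. Spi1 RNA, which encodes PU.1, had 68 to 78 counts in control and 115 to 159 counts in cKO (log2 fold change 1.03, edgeR adjusted p = 0.000133). The factors' binding was not measured in these samples.

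Among the other genes of the lysosome pathway the largest rises were in a pair of genes known from macrophages and blood cells. Of 81 such genes, written down from general knowledge with earlier results of these data known, 79 could be tested. Of these, 17 were higher and 4 lower in cKO, against the background of 9.38% and 6.46%, with a median log2 fold change of 0.03. That pair was Cd68, a macrophage lysosomal membrane protein that is also on the macrophage list, at 9.53 to 10.03 CPM in control and 17.5 to 20.4 CPM in cKO (log2 fold change 0.90, edgeR adjusted p = 9.14e-08), and Laptm5, a lysosomal protein of blood cells on the same list (0.83). Hydrolases came next, among them Sgsh, the heparan sulfamidase (0.53), and Aga, the aspartylglucosaminidase (0.36). The 4 falls were in Sort1, the sorting receptor sortilin (log2 fold change -0.23), the Golgi adaptors Gga2 (-0.19) and Ap1b1 (-0.16), and Slc38a9, the lysosomal arginine sensor (-0.17). Of 18 regulators of lysosomal genes and of mTORC1 at the lysosome, 1 was higher, Fnip2 (log2 fold change 0.23), and none was lower. Among them Tfe3 and Mitf, the relatives of TFEB, had log2 fold changes of -0.04 and -0.03. Of the cathepsin inhibitors Cstb (cystatin B) was higher (log2 fold change 0.19), Cst3 and Cst6 did not pass, and Cst7 was too low to test.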

How the data were processed

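RNA was measured in 6 samples of cultured satellite cells, 3 control and 3 cKO, with a TruSeq Stranded Total kit after Ribo-Zero Gold (400 ng of RNA, single-end 75-base reads). Alignment to mm10 by the authors used Bowtie2 2.3.4.2, which does not split reads over exon junctions, and they deposited raw counts per gene made with featureCounts 1.6.3. Their strand setting and treatment of multiply mapped reads are not given in the sources used here, so overlapping genes and pseudogene copies can share reads. A table of normalized counts and a DESeq2 2.11.40.6 comparison table (mean normalized counts, log2 fold change, SE, Wald statistic, p and adjusted p) were not used.

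Genes were named from GENCODE M21, which held all 55536 identifiers. Counts were tested with edgeR 4.0.16 in R 4.3.3 (filterByExpr, TMM, quasi-likelihood test, genotype as sole term, 3 against 3) with Benjamini-Hochberg adjustment over 22404 genes. A gene was called at an adjusted p under 0.05. Replicates had a common coefficient of variation of 3.92%. Replicates of a group differed by more than sampling noise and were kept as separate samples. The script was tested on simulated data.

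The 60 genes, the gene lists, the motifs and the rule for named genes were chosen with earlier results of these data known. Values in every sample are given for the macrophage-rich cathepsins, the called members and Tfeb. Of the 81 other pathway genes the 5 largest called rises and up to 5 largest called falls are named, except for a result not reported here. Shared sequence was measured as exact 75-base windows of transcripts. Alternatives were DESeq2 1.42.0, other scalings and filters, a replicate block, a stricter threshold, other list definitions and leaving out each sample.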

Additional observations from a re-analysis of the deposited data

How the results depend on the processing

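Of the 22 called members, 14 kept the call under all 12 alternatives of test, scaling, filter, block and left-out sample. The other 8 (Gusb, Glb1, Asah1, Psap, Ctsz, Ctsa, Lgmn and Atp6v1g1) lost it only when a sample was left out, with log2 fold changes of at most 0.26 there, and no called member changed direction. The count of members higher in cKO, 20, was 14 to 21 with a sample left out (14 without control replicate 1), 24 with total counts alone and 14 at an adjusted p under 0.01. The count of members lower, 2, was 1 to 3 with a sample left out, 1 at an adjusted p under 0.01 and 0 once members sharing over 10% of their windows were removed, since both Cd63 and Atp6v1g1 share more. The median log2 fold change of the macrophage-rich cathepsins was 0.40 to 0.45 with a sample left out, 0.61 without members with shared windows and 0.65 for Ctsc, Ctsh and Ctss alone. That of the ubiquitous genes was 0.0072 (without cKO replicate 1) to 0.0886 (without cKO replicate 3), and 0.11 when all listed genes but the macrophage-rich cathepsins were taken. That of V-ATPase genes was 0.0029 to 0.02 with a sample left out and 0.034 with total counts alone. That of all tested members was 0.04 (without cKO replicate 1) to 0.09. For Hira it was -0.52 to -0.29. Of uncalled genes, Ctsd, Lamp1, Atp6v1a and Atp6v1h passed as higher with total counts alone (edgeR adjusted p of 0.0297, 0.0152, 0.0363 and 0.0203). With no filter Ctsd passed as higher and Atp6v0e as lower (edgeR adjusted p of 0.026 and 0.047). Lamp1 and Atp6v1h passed as higher with at least 50 counts in 3 samples (edgeR adjusted p of 0.0392 and 0.0453). The cause was not tested for any value whose shift the setting does not itself define.

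No pairing by replicate number was detected: same-numbered samples correlated at -0.0129, -0.0045 and -0.0145 in their deviations from the group means. Such correlations cannot exclude that samples shared a litter or a day. With the replicate block 20 members were higher and 2 lower, and over all genes 1901 were higher and 1251 lower. Counting error limits Atp6v1c2 and Atp6v1e2, whose 95% intervals reached 0.99 and -0.61.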
